A study of Mus musculus with 23 samples.

Results

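The clustered protocadherins are cell adhesion proteins encoded by the alpha, beta and gamma gene clusters, which lie next to each other on mouse chromosome 18. Rows whose gene symbol named a member of these clusters were taken from a count table of mouse cortex RNA, and 24 of its 39017 rows matched. They comprised the 22 beta genes (Pcdhb1 to Pcdhb22), 1 alpha row listed as Pcdha2 (ENSMUSG00000007440) and 1 gamma row listed as Pcdhga9 (ENSMUSG00000023036). The GENCODE M21 annotation of GRCm38 names these last 2 identifiers Pcdha11 and Pcdhgc4, and lists 14 alpha and 22 gamma genes, of which 1 each had a row. The other 34 had no row in the count table and could not be analysed. Their Ensembl identifiers all lie above the highest identifier in it. Which exons the alpha and gamma rows count is not stated, and they are called the alpha row and the gamma row below. A comparison of variable with C-type isoforms could therefore not be made.

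Each alpha and gamma transcript joins its own first exon to constant exons that all isoforms of its cluster share, whereas each beta gene makes its own transcript without a constant region. A neuron switches on a small, partly random set of these promoters, which gives its surface an identity used in self-avoidance of its branches. Promoter choice is known to depend on CTCF, cohesin and DNA methylation, and the DNA methyltransferases and SMCHD1 keep unchosen promoters silent. In bulk cortex a row gives the summed output of many cells, so that fewer cells of a type and less RNA per cell cannot be told apart.

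Total RNA of pulverised cortex was sequenced after removal of ribosomal RNA, as 23 libraries of 22 mice. At 10 weeks there were 3 H3f3a G34R/+ males, 3 H3f3a G34V/+ males, 2 H3f3a G34W/+ animals (1 male and 1 labelled female) and 6 H3f3a +/+ (WT) males. The title of the G34W animal labelled female begins with M, as those of the males do, whereas titles of day-7 females begin with F. At postnatal day 7 there were 4 H3f3a G34R/+ and 4 WT mice, each group with 2 males and 2 females. H3f3a encodes the histone variant H3.3, and each mutant carried 1 allele with glycine 34 replaced by arginine (G34R), valine (G34V) or tryptophan (G34W). The labels give no strain, no founder line and no batch. The series names recruitment of the methyltransferase DNMT3A by the altered histone as its subject. Gene counts do not show the altered codon, so the genotypes could not be checked from them.

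Total counts per library were 32283004 to 90067111 at 10 weeks and 28414057 to 53520391 at day 7. The members together held 20911 to 68129 of these counts per library at 10 weeks and 33464 to 65624 at day 7. Levels are given as counts-per-million values (CPM) on 1 TMM scale over all animals, and differences as log2 fold changes from edgeR's quasi-likelihood test. A change is called at a Benjamini-Hochberg adjusted p under 0.05 over all genes tested. Pcdhb1, with 2 to 40 counts per animal, did not pass the low-count filter at either age, which left 23 members for the comparisons within an age. All 7 excitatory neuron markers were detected at 10 weeks, with a summed level of 972 to 1280 CPM in the 4 groups. Markers of 2 structures outside the cortex were also found and varied between animals, with summed levels of 14.6 to 1060 CPM for choroid plexus and 364 to 822 CPM for striatum at 10 weeks. The 2 libraries of WT replicate 3 differed by log2 ratios between -0.548 and 0.404 over 23 members, with a median of 0.06.

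Expression of the beta genes was uneven along the cluster. Per kilobase of exon that no other gene shares, Pcdhb9 was the highest in WT at 10 weeks, at 4.88 ± 0.266 CPM per kilobase (mean ± SD, n = 6). Pcdhb17 (3.92 ± 0.421) and Pcdhb20 (3.88 ± 0.136 CPM per kilobase) came next and did not differ from each other beyond their SD. Pcdhb12 (3.28 ± 0.259) and Pcdhb16 (2.90 ± 0.276 CPM per kilobase) followed, and again did not differ beyond their SD. The lowest gene tested was Pcdhb6, at 0.634 ± 0.124 CPM per kilobase. Pcdhb1, which begins the beta cluster, stood at 0.0442 ± 0.0167 CPM per kilobase. Pcdhb9, Pcdhb17 and Pcdhb20 were also the first 3 in all 3 mutant groups at 10 weeks, in that order. At day 7, Pcdhb20 came first in both genotypes, at 5.49 ± 0.302 CPM per kilobase in G34R and 4.91 ± 0.463 in WT (n = 4 each), with Pcdhb17 second.

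**Figure D1:**
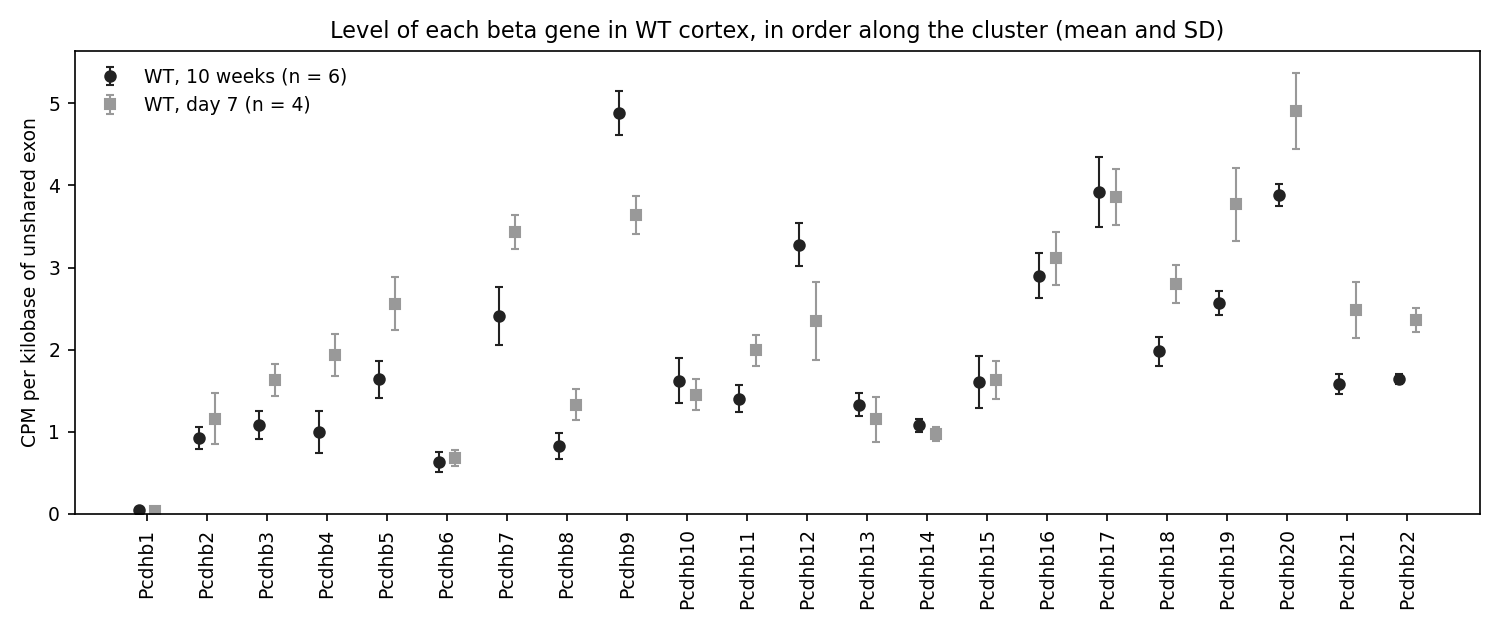
Level of each of the 22 beta genes in WT cortex, in CPM per kilobase of unshared exon (vertical axis), in order along the cluster (horizontal axis). Circles are the mean of 6 animals at 10 weeks, squares the mean of 4 at day 7, and bars the SD; Pcdhb9, at 4.88, is the highest at 10 weeks and Pcdhb20, at 4.91, at day 7.

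Beta genes are close copies of each other, which bears on how far their counts can be kept apart. Over 231 pairs, the identity of their coding sequences in GENCODE M21 had a median of 73.9%. The highest (89.7%) was between Pcdhb7 and Pcdhb9, with Pcdhb6 and Pcdhb8 also at 89.7%. The lowest (56.5%) was between Pcdhb1 and Pcdhb19. The share of a gene's 50-base stretches also found in any other protocadherin gene ranged from 0.0% in Pcdhb1 to 12% in Pcdhb12. The other genes included those of the alpha and gamma clusters and those outside the clusters. The end of Pcdhb21 and the start of Pcdhb22 overlap on the same strand. Whether the counting kept reads from such stretches is not stated. The spread between animals was moderate, with a median coefficient of variation of 10.8% over the 21 beta genes tested in WT at 10 weeks, from 3.52% for Pcdhb20 to 25.8% for Pcdhb4.

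The summed beta level was above that of all WT animals of the same age in 7 of 8 mutant animals at 10 weeks and in 4 of 4 at day 7. It was 178.4, 190.6 and 206.3 CPM in the 3 G34R animals at 10 weeks, 203.4, 204.7 and 186.1 CPM in G34V, and 201.0 and 217.7 CPM in G34W, against 168.8 to 182.0 CPM in the 6 WT animals. Every G34V and G34W animal was above every WT animal, and 1 G34R animal lay within the WT range. The mean sums were 191.8 ± 14 CPM in G34R, 198.1 ± 10.4 CPM in G34V and 209.4 ± 11.8 CPM in G34W, against 176.9 ± 5.08 CPM in WT. These are ratios of 1.08, 1.12 and 1.18, described without a test. The 3 mutant groups share the 6 WT animals.

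The day-7 animals are other mice, with their own WT group. Their summed beta level was 244.4, 235.8, 230.8 and 250.3 CPM in G34R, against 206.1, 213.2, 199.9 and 226.0 CPM in WT. The ranges did not overlap, and the ratio of means was 1.14 (240.3 ± 8.7 CPM in G34R and 211.3 ± 11.2 CPM in WT, SD, n = 4 each). The beta share of all clustered protocadherin counts was 22.3 ± 0.927% in G34R and 19.6 ± 1% in WT at day 7. At 10 weeks it was 23.9 ± 1.83% in G34R, 25.0 ± 1.04% in G34V and 24.9 ± 0.213% in G34W, against 22.4 ± 0.78% in WT. The total of the alpha row, the beta genes and the gamma row differed less, with 1078 ± 47.9 CPM in G34R and 1081 ± 41.5 CPM in WT at day 7. At 10 weeks it was 801.4 ± 19.1 CPM in G34R and 792.5 ± 45.7 CPM in G34V. In G34W it was 839.6 ± 54.4 CPM, against 789.3 ± 21.9 CPM in WT. The alpha share at 10 weeks was 18.1 to 19.7% in G34R, 17.9 to 18.1% in G34V and 18.4 to 18.6% in G34W. In WT it was 19.1 to 20.9%. At day 7 the alpha share was 26.7 to 29.3% in G34R and 29.2 to 31.4% in WT.

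The alpha row did not change by the test in any mutant comparison. It had 147.8, 143.7 and 159.5 CPM in G34R, 150.9, 139.8 and 136.2 CPM in G34V, and 147.6 and 163.0 CPM in G34W at 10 weeks, against a lowest of 150, a median of 157 and a highest of 164 CPM in WT. The groups overlapped in each case, although 2 of 3 G34R, 2 of 3 G34V and 1 of 2 G34W animals lay below all WT animals. The log2 fold changes against WT were -0.06 (SE 0.0546, edgeR adjusted p = 0.599) for G34R, -0.14 (SE 0.0548, adjusted p = 0.188) for G34V and -0.02 (SE 0.0631, adjusted p = 0.911) for G34W. At day 7 the row had 305.9, 301.2, 297.6 and 313.2 CPM in G34R, against 335.2, 349.0, 298.5 and 324.2 CPM in WT (log2 fold change -0.09, SE 0.0469, edgeR adjusted p = 0.713). The gamma row had 459.3 ± 25.2 CPM in G34R, 452.2 ± 31.4 in G34V and 474.9 ± 31.7 in G34W, against 455.4 ± 20.9 CPM in WT. Its log2 fold changes were 0.01 (SE 0.0606), -0.01 (SE 0.0607) and 0.06 (SE 0.0699) at 10 weeks and -0.02 (SE 0.0524) at day 7. None of them passed edgeR's test, with adjusted p between 0.707 and 0.969.

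**Figure D2:**
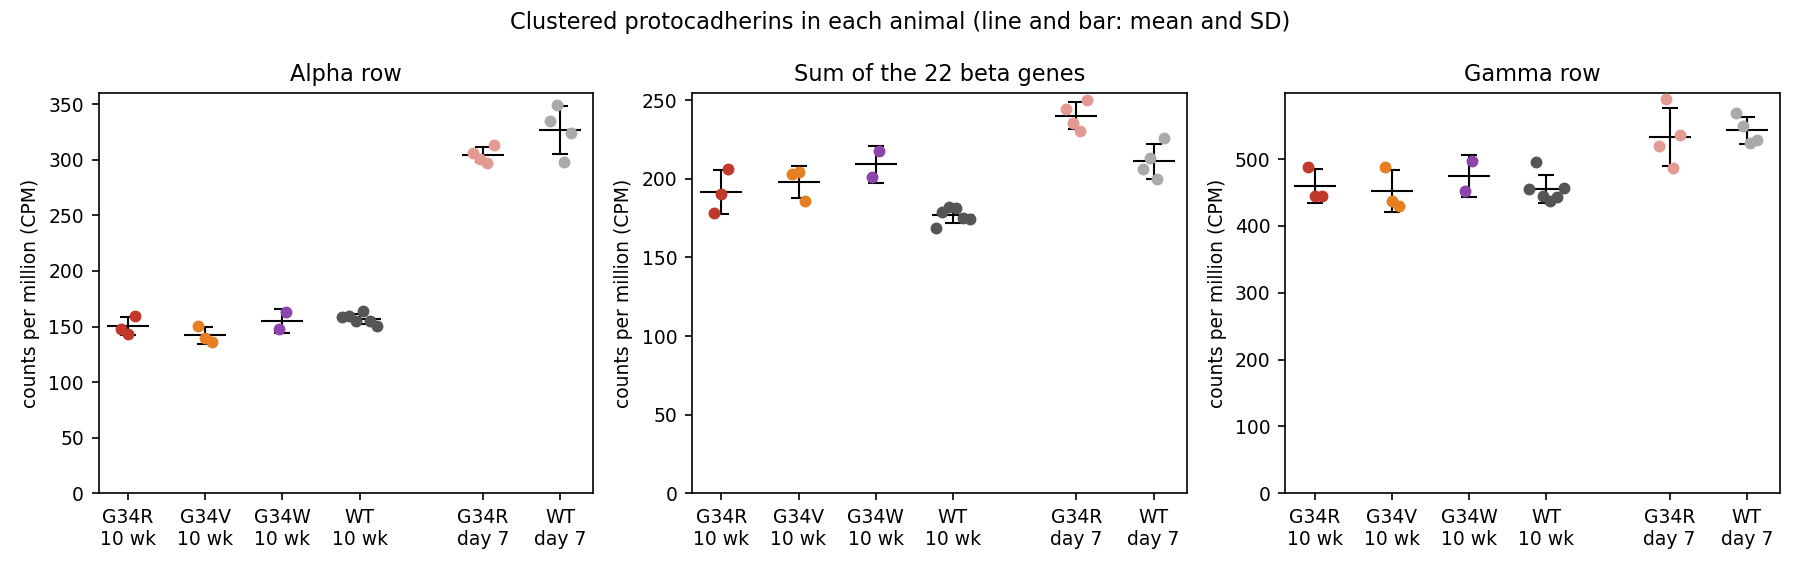
Level of the alpha row, the summed 22 beta genes and the gamma row in CPM (vertical axes, from 0) in each animal (points), with the group mean and SD (line and bar). The beta sums of G34V and G34W at 10 weeks and of G34R at day 7 lie above those of all WT animals of the same age, while alpha and gamma values overlap between genotypes.

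G34R cortex at 10 weeks was compared with WT to ask which single members differ. No member was called by edgeR, against 5.61% of the 21274 genes tested. At an unadjusted p under 0.05, 3 of 23 members were higher and 0 lower, against 8.67% of all genes tested higher and 9.43% lower. DESeq2 and limma-voom called 1 member each, Pcdhb14, as higher. Pcdhb14 (chromosome 18, 37447656 to 37456350 in GRCm38, plus strand), an adhesion gene in the middle of the beta cluster, had 10.3, 12.3 and 12.9 CPM in G34R. The 6 WT animals had a lowest of 8.69, a median of 9.13 and a highest of 10.5 CPM. Of the G34R animals, 2 of 3 were above all WT animals and the other was within their range. The log2 fold change was 0.33 (SE 0.094), with an edgeR adjusted p of 0.0503. Of the 21 beta genes tested, 14 had a fitted change above 0, against 49.1% of all genes tested. Their median was 0.13, against -0.004 over all genes tested. It was 0.06 without G34R replicate 3 and 0.08 without WT replicate 1.

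In G34V cortex at 10 weeks, 2 of 23 members were called higher than in WT and 0 lower, against 4.25% of all genes tested called and 1.57% called higher. Both were beta genes from the later part of the cluster. DESeq2 and limma-voom called the same 2 genes higher and 0 lower. Pcdhb17 (37484795 to 37489454) had 25.2, 25.0 and 22.6 CPM in G34V, against a lowest of 15.5, a median of 18.9 and a highest of 20.4 CPM in the 6 WT animals. All 3 G34V animals were above all WT animals. The log2 fold change was 0.41 (SE 0.0905, edgeR adjusted p = 0.0133), and the call ended without G34V replicate 1 (adjusted p = 0.0818) or replicate 2 (0.0767). It also ended, with adjusted p = 0.0551, when only libraries with a like share of mitochondrial counts were compared.

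Pcdhb21 (37513621 to 37518325) was the other gene called in G34V. It had 8.35, 8.41 and 9.16 CPM in G34V, against a lowest of 6.17, a median of 6.59 and a highest of 7.72 CPM in WT. The groups did not overlap, with 3 of 3 G34V animals above all WT animals. The log2 fold change was 0.36 (SE 0.0993, edgeR adjusted p = 0.0483), close to the threshold. The call held in 3 of the 14 fits that left out 1 animal each, over which the adjusted p ranged from 0.0318 to 0.198. At an unadjusted p under 0.05, 6 members were higher, against 7.07% of all genes tested, and the alpha row was lower. Besides the called pair these were Pcdhb9, Pcdhb13, Pcdhb14 and Pcdhb16, with fitted changes of 0.24, 0.27, 0.24 and 0.31. Of the 21 beta genes tested in G34V, 13 had a fitted change above 0 and 8 below, against 52% of all genes tested above 0. The median was 0.09, against 0.008 over all genes tested, and the lowest change was -0.26.

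In G34W cortex, 1 of 23 members was called higher than in WT and 0 lower, against 1.61% of all genes tested called and 0.564% called higher. Pcdhb9 (37400855 to 37403909), the beta gene with the highest level per kilobase in WT at 10 weeks, had 23.1 and 20.1 CPM in the 2 G34W animals. The WT animals had a lowest of 14.3, a median of 14.6 and a highest of 16.5 CPM, so both G34W animals were above all of them. The log2 fold change was 0.53 (SE 0.0898, edgeR adjusted p = 0.00774). Without G34W replicate 1 the call ended, at an adjusted p of 0.117 with 1 G34W animal left, whose spread is then assumed to be that of the other groups. DESeq2 called Pcdhb9 as well, and limma-voom did not (adjusted p = 0.0839).

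At an unadjusted p under 0.05, 4 members were higher in G34W (Pcdhb9, Pcdhb11, Pcdhb14 and Pcdhb16), against 8.17% of all genes tested. The other beta genes in G34W mostly had fitted changes above 0 as well. In all, 20 of 21 did, against 51.8% of all genes tested. The median was 0.18 against 0.01 over all genes tested, and Pcdhb8 was the exception at -0.38 (SE 0.225, edgeR adjusted p = 0.4). Without G34W replicate 1 the median was 0.32. The ranges of 6 members lay above those of WT without overlap, against 7.54% of all genes tested. They were Pcdhb9, Pcdhb10, Pcdhb13, Pcdhb14, Pcdhb16 and Pcdhb22, all named after their values were seen. Pcdhb16 had 17.3 and 22.7 CPM in G34W, against 13.7 to 16.9 CPM in WT (log2 fold change 0.40, SE 0.126, edgeR adjusted p = 0.117). Without G34W replicate 2 the change was 0.18. Pcdhb14 had 13.1 and 11.3 CPM in G34W, against 8.69 to 10.5 CPM in WT (0.37, SE 0.109, adjusted p = 0.103).

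**Figure D3:**
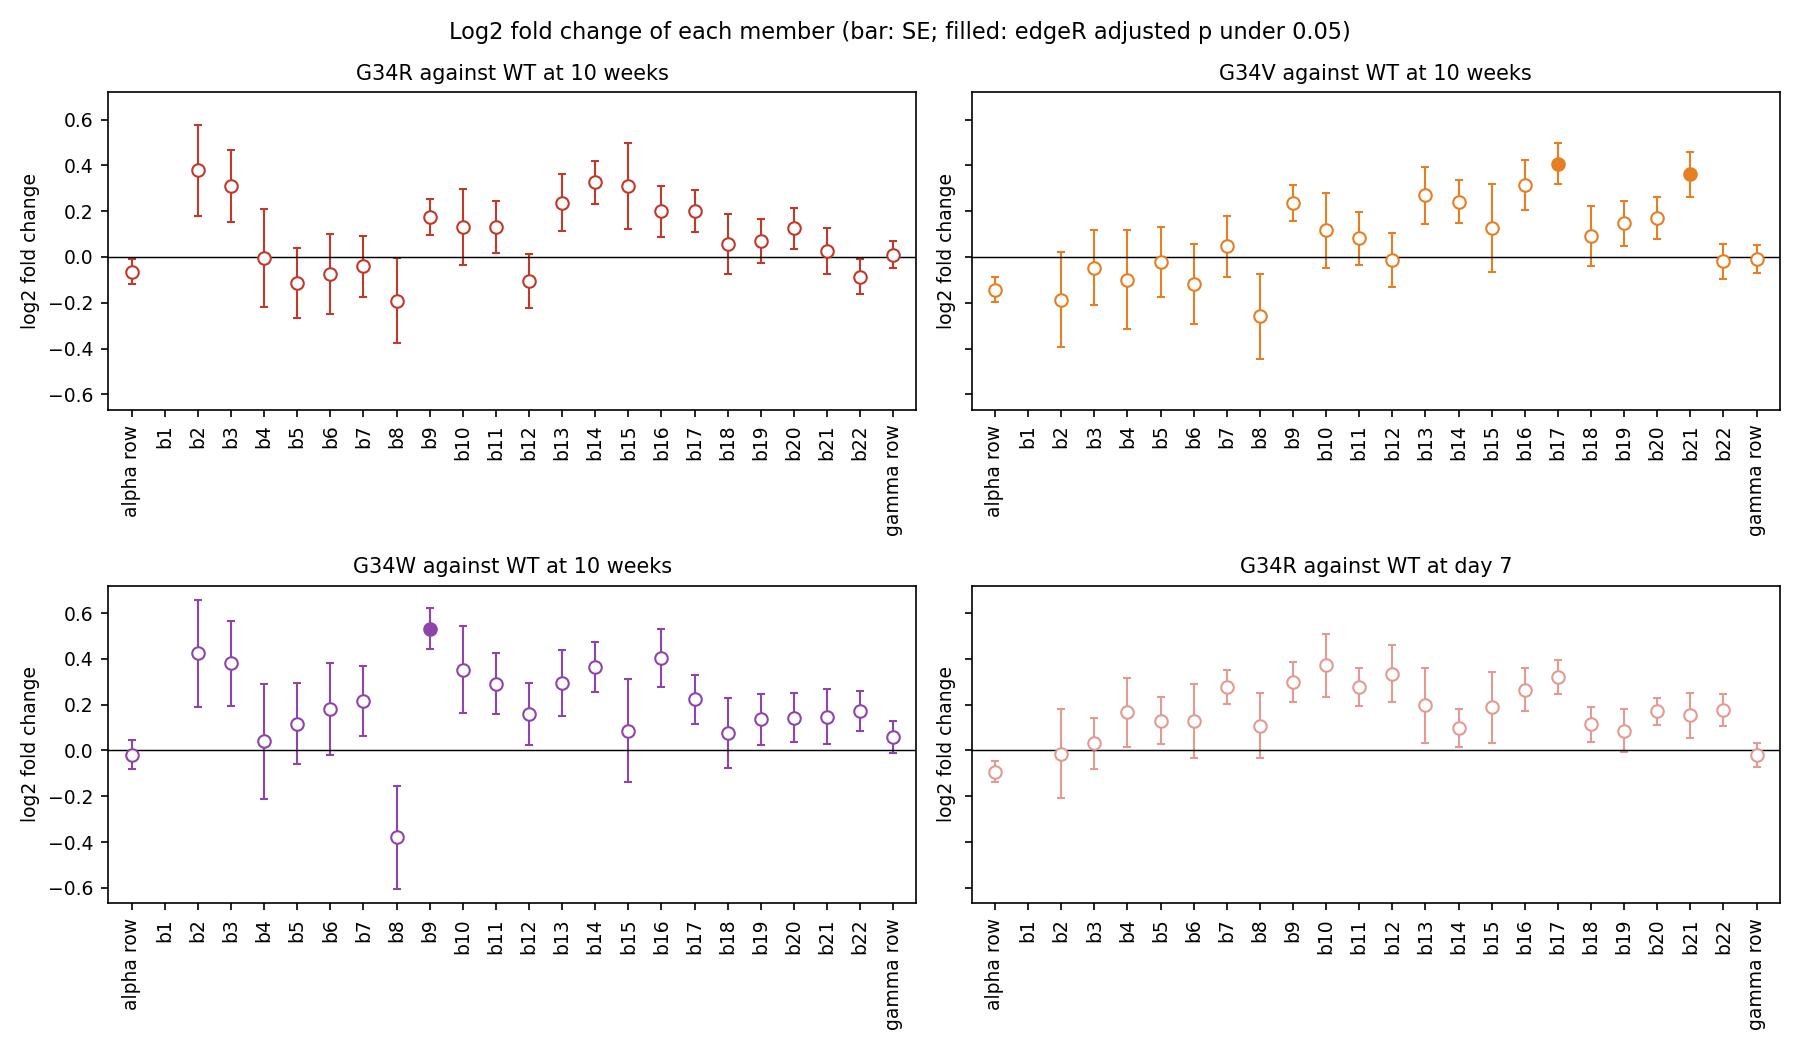
Log2 fold change against WT (vertical axes) of the alpha row, the beta genes b1 to b22 (Pcdhb1 to Pcdhb22) in order along the cluster, and the gamma row, for G34R, G34V and G34W at 10 weeks and G34R at day 7. Bars are the SE and filled points an edgeR adjusted p under 0.05; Pcdhb17 and Pcdhb21 are filled in G34V and Pcdhb9 in G34W, and Pcdhb1 was not tested.

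At day 7, G34R cortex had 0 of 23 members called by edgeR, against 0.308% of the 20451 genes tested. DESeq2 called 1 member, Pcdhb17, as higher, and limma-voom called 0. At an unadjusted p under 0.05, 9 of 23 members (39.1%) were higher and 0 lower, against 3.81% of all genes tested higher. All 9 were beta genes, and none of them passed adjustment over all genes. Of the 21 beta genes tested, 20 had a fitted change above 0, against 50.5% of all genes tested. The median was 0.17, against 0.001 over all genes tested. The exception was Pcdhb2, at -0.01 (SE 0.193).

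Pcdhb17 had the smallest p at day 7. It had 23.5, 21.1, 21.5 and 23.3 CPM in G34R, against 17.9, 16.8, 17.1 and 20.2 CPM in WT. All 4 G34R animals were above all 4 WT animals, and the log2 fold change was 0.32 (SE 0.0748, edgeR adjusted p = 0.164). Pcdhb9 had 15.1, 13.0, 13.8 and 12.5 CPM in G34R, against 10.8, 10.2, 11.6 and 11.7 CPM in WT, again without overlap (0.30, SE 0.0856, adjusted p = 0.304). Pcdhb7, the closest copy of Pcdhb9, had 14.4, 13.4, 15.0 and 15.2 CPM in G34R, against 12.7, 12.5, 11.1 and 11.8 CPM in WT (0.28, SE 0.0742, adjusted p = 0.245). With Pcdhb11, these made 4 members whose G34R range lay above that of WT, against 2.28% of all genes tested. Pcdhb10 had the largest fitted change, 0.37 (SE 0.137, edgeR adjusted p = 0.534), with overlapping ranges.

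**Figure D4:**
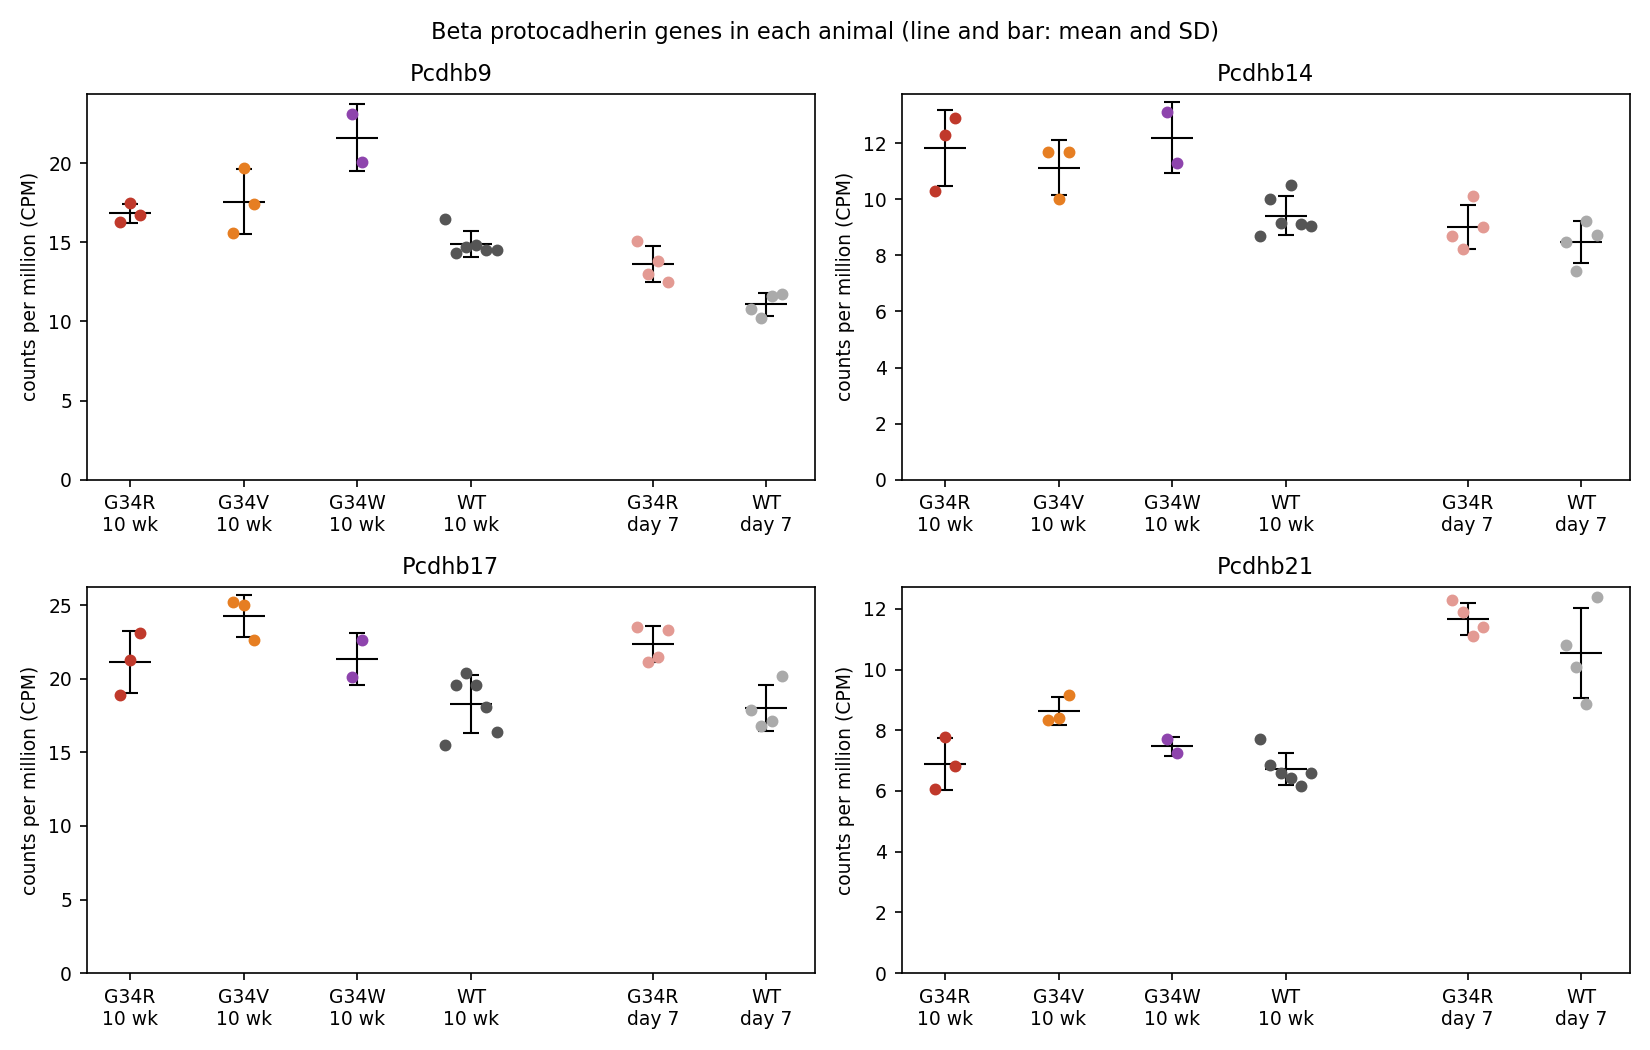
CPM (vertical axes, from 0) of Pcdhb9, Pcdhb14, Pcdhb17 and Pcdhb21 in each animal (points), with the group mean and SD (line and bar). Pcdhb9 is highest in the 2 G34W animals (23.1 and 20.1 CPM). Among the 10-week groups the mean of Pcdhb17 is highest in G34V (22.6 to 25.2 CPM). The ranges of the mutant groups meet, with Pcdhb17 up to 23.1 CPM in G34R and 22.6 CPM in G34W.

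The G34R effect at 10 weeks was set against that at day 7 in a fit of all animals. No member's G34R effect was called different between the ages, with 0 of 24 called by edgeR, by DESeq2 and by limma-voom, against 1.16% of 22417 genes tested with edgeR. At an unadjusted p under 0.05, 2 members had a lower effect at 10 weeks, against 5.69% of all genes tested. These were Pcdhb22 (-0.26, SE 0.101, edgeR adjusted p = 0.315) and Pcdhb12 (-0.42, SE 0.186, adjusted p = 0.397). Pcdhb12 had 8.90, 9.15 and 9.77 CPM in G34R at 10 weeks, against 8.64 to 10.9 CPM in WT. At day 7 it had 7.87, 9.08, 9.13 and 9.78 CPM in G34R, against 5.01, 7.74, 8.05 and 7.78 CPM in WT. For this gene 3 of 4 G34R animals were above all WT animals at day 7, and all 3 were within the WT range at 10 weeks.

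The substitutions were also compared with each other, which leaves the shared WT animals out. No member was called by edgeR between G34R and G34V (0.23% of all genes tested), G34R and G34W (1.88%) or G34V and G34W (0.15%), with 2 members each at an unadjusted p under 0.05, against 10.9%, 18.2% and 11.7% of all genes tested. DESeq2 called 0, 1 and 0 members in these comparisons, and limma-voom 0 in each. The member DESeq2 called was Pcdhb9, with 16.3, 17.5 and 16.7 CPM in G34R, against 23.1 and 20.1 CPM in G34W. The ranges did not overlap, and edgeR gave a log2 fold change of -0.36 (SE 0.102, adjusted p = 0.0796). Against G34V, with 15.6, 19.7 and 17.4 CPM, the difference of G34W in Pcdhb9 did not pass the test either (-0.29 for G34V over G34W, SE 0.102, edgeR adjusted p = 0.264). Pcdhb21 had 6.05, 7.77 and 6.83 CPM in G34R, against 8.35, 8.41 and 9.16 CPM in G34V (-0.34, SE 0.116, adjusted p = 0.297). These tests do not show that the substitutions act alike on the beta genes.

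Other values moved with genotype beside the beta genes. The summed level of 7 microglial markers was 539 to 603 CPM in G34R, 395 to 494 CPM in G34V and 362 to 406 CPM in G34W, against 330 to 365 CPM in WT at 10 weeks, and 182 to 207 CPM in G34R against 151 to 169 CPM in WT at day 7. The 7 oligodendrocyte markers summed to 3200 to 4120 CPM in G34R, 2660 to 3460 CPM in G34V and 2880 to 4390 CPM in G34W, against 4240 to 5550 CPM in WT. Pan-neuronal markers were lower in G34R without overlap and overlapped WT in G34V and G34W, at 5590 to 5740 CPM in G34R, 5670 to 6180 CPM in G34V and 5470 to 6260 CPM in G34W, against 5870 to 6690 CPM in WT. The 6 interneuron markers were at 727 to 731 CPM in G34W, above the 616 to 690 CPM in WT, and the 5 oligodendrocyte precursor markers at 164 to 174 CPM in G34V, below the 180 to 211 CPM in WT. No marker of these lists was at 0 throughout a group. The part of these shifts in the beta levels was not tested.

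The libraries at 10 weeks also fell into 2 sets by how much of their total came from mitochondrial protein-coding genes, 0.885 to 1.03% in 6 libraries and 1.12 to 1.36% in 9. All 3 G34R libraries were in the low set and all G34V and G34W libraries in the high set, each with WT libraries. The 2 libraries of WT replicate 3 fell in different sets, at 0.933% and 1.27%, so this animal stands in the WT of both sets. Within the low set the summed beta level was 191.3 ± 13.9 CPM in G34R (n = 3 libraries) and 176.5 ± 7.03 CPM in WT (n = 3). Within the high set it was 197.6 ± 10.4 CPM in G34V (n = 3) and 208.9 ± 11.7 CPM in G34W (n = 2), against 177.8 ± 4.4 CPM in WT (n = 4). The part of the sets in the beta levels was not tested.

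In WT cortex, 2 of 24 members were higher at 10 weeks than at day 7 and 13 were lower, 62.5% of the members, against 67.7% of the 22417 genes tested (33.3% higher and 34.4% lower). The share of members called was thus near that of all genes. The alpha row fell to 157.0 ± 4.59 CPM at 10 weeks (n = 6), against 326.7 ± 21.4 CPM at day 7 (n = 4), a log2 change of -1.06 (SE 0.0468, adjusted p by edgeR = 9.74e-16). Its highest 10-week value, 164 CPM, was below its lowest day-7 value, 298 CPM. The gamma row fell less, to 455.4 ± 20.9 CPM at 10 weeks against 542.8 ± 20.4 CPM at day 7 (-0.25, SE 0.0542, adjusted p = 0.00024). The alpha share of all clustered protocadherin counts was 19.9 ± 0.68% at 10 weeks and 30.2 ± 0.914% at day 7, and the gamma share 57.7 ± 1.25% and 50.2 ± 1.18%, each in WT.

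Among beta genes, 11 were lower and 2 higher in WT at 10 weeks. The largest decrease was that of Pcdhb4, with a lowest of 2.41, a median of 4.26 and a highest of 4.44 CPM at 10 weeks, against 7.60, 6.96, 5.96 and 8.19 CPM at day 7. The ranges did not overlap, and the log2 fold change was -0.94 (SE 0.178, edgeR adjusted p = 6.47e-05). Pcdhb8 (-0.69, SE 0.151, adjusted p = 0.000292) and Pcdhb21 (-0.65, SE 0.0883, adjusted p = 6.42e-07) came next. The others called lower were Pcdhb3, Pcdhb5, Pcdhb7, Pcdhb11 and the run from Pcdhb18 to Pcdhb22, and those among them not given above had log2 fold changes from -0.64 to -0.34.

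The beta genes that rose were Pcdhb9 and Pcdhb12, which ranked 1 and 4 in level per kilobase at 10 weeks. Pcdhb9 had 14.3 to 16.5 CPM at 10 weeks, against 10.8, 10.2, 11.6 and 11.7 CPM at day 7 (0.42, SE 0.0742, edgeR adjusted p = 2.23e-05). Its share of the beta sum was 8.43 ± 0.671% at 10 weeks and 5.25 ± 0.419% at day 7. Pcdhb12 had a lowest of 8.64, a median of 9.98 and a highest of 10.9 CPM at 10 weeks, against 5.01, 7.74, 8.05 and 7.78 CPM at day 7 (0.47, SE 0.121, adjusted p = 0.00161). From Pcdhb13 to Pcdhb17, no gene was called in either direction. The 13 lower and 2 higher calls were also made by DESeq2, and limma-voom called 14 lower and 2 higher.

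**Figure D5:**
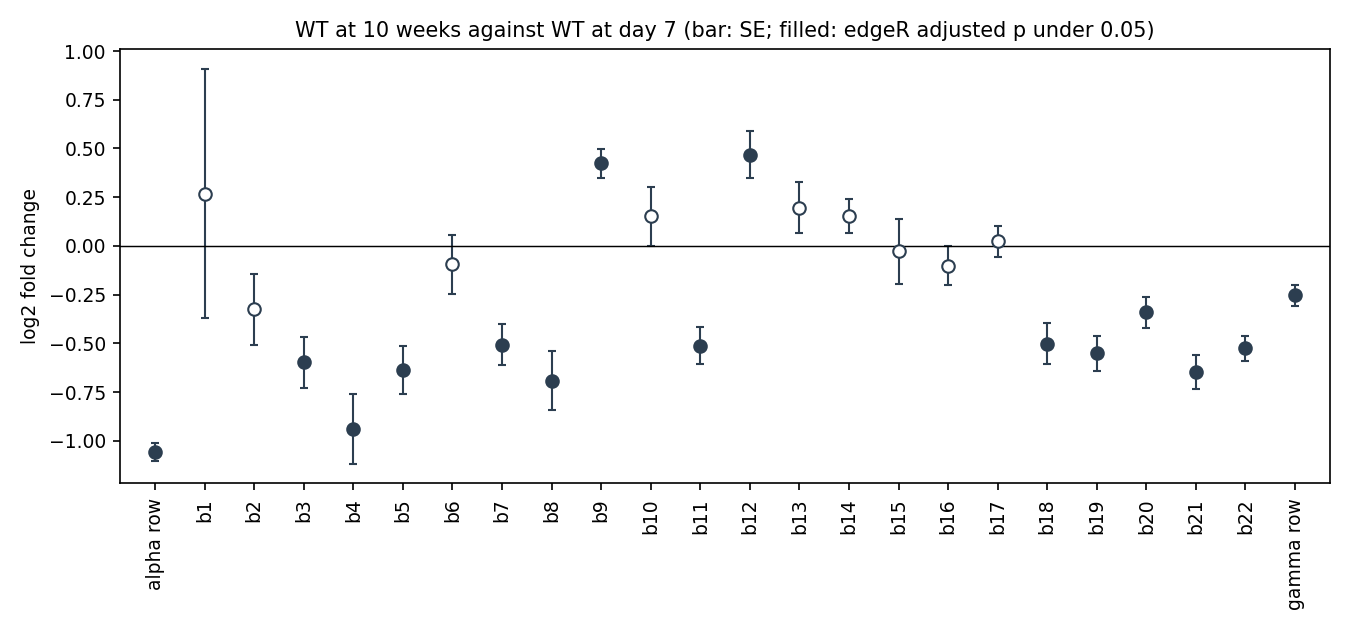
Log2 fold change of WT at 10 weeks over WT at day 7 (vertical axis) for the alpha row, the beta genes b1 to b22 in order along the cluster, and the gamma row. Bars are the SE and filled points an edgeR adjusted p under 0.05; Pcdhb9 and Pcdhb12 are filled above 0, and the alpha row, at -1.06, is the lowest point.

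Cell composition moved with age too. The 6 immature neuron markers summed to 238 to 296 CPM in WT at 10 weeks, against 5520 to 6620 CPM at day 7, and the oligodendrocyte markers to 4240 to 5550 CPM against 192 to 247 CPM. Their part in the age differences of the protocadherins was not tested. All WT animals at 10 weeks were males, and with males alone the counts were again 2 higher and 13 lower. Libraries of the 2 ages may have been made apart, which the labels do not say, and age and any such batch cannot be told apart.

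Regulators of protocadherin promoter choice were measured in the same libraries. Of 12 genes tested (Ctcf, cohesin subunits and their loaders, Smchd1 and others), 0 were called by edgeR in each mutant comparison with WT. At an unadjusted p under 0.05 the counts, of both directions together, were 3 in G34W, 1 each in G34R and G34V at 10 weeks and 0 in G34R at day 7. Of all genes tested, 8.67% were higher and 9.43% lower in G34R at 10 weeks at that threshold. The share higher alone was 8.17% in G34W, 7.07% in G34V and 3.81% in G34R at day 7. The shares lower are not given for these comparisons, so their counts of both directions cannot be set against all genes. DESeq2 called 1, Nipbl, in G34W and limma-voom 0. With age, 3 were higher and 4 lower at 10 weeks in WT, against 33.3% of all genes tested higher and 34.4% lower, so that the share called was near that of all genes. Among those lower were Nipbl, which loads cohesin (-0.60, SE 0.0587, edgeR adjusted p = 2.37e-09), and Wiz, a zinc finger gene whose product binds beside CTCF (-1.71, SE 0.0894, adjusted p = 2.44e-14). Ctcf itself, the insulator protein gene, had 64.0 CPM at 10 weeks and 64.2 CPM at day 7 in WT (-0.005, SE 0.0493, adjusted p = 0.927).

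Of 12 genes that write, read or erase DNA methylation, Tet1, which oxidises methylcytosine, was lower in G34R (15.25 ± 1.01 CPM, n = 3) than in WT (18.35 ± 0.867 CPM, n = 6), with a log2 change of -0.27 (SE 0.0736, adjusted p by edgeR = 0.0379). It was also lower in G34V (15.17 ± 1.29 CPM, -0.27, SE 0.0737, adjusted p = 0.0429), and edgeR called no other gene of this list in a mutant comparison with WT. With age, 10 of the 12 were lower at 10 weeks in WT and 2 higher, against 34.4% and 33.3% of all genes tested. Dnmt3a, the de novo methyltransferase gene named by the series, had 74.9 ± 5.26 CPM at 10 weeks and 405.8 CPM at day 7 in WT (-2.44, SE 0.0654, adjusted p = 9.45e-20). Of 20 genes of H3K9 and H3K36 methylation, Kdm2b, an H3K36 demethylase gene, was higher in G34R (0.24, SE 0.0663, adjusted p = 0.04) and in G34V (0.29, SE 0.0662, adjusted p = 0.016), and edgeR called no other against WT. By limma-voom, Setdb1 was called higher in G34V as well, and DESeq2 called Kdm2b alone. Over all genes tested, edgeR called 5.61% in G34R and 4.25% in G34V at 10 weeks, and 0.308% in G34R at day 7. At 10 weeks, 1 call in a list of 12 or 20 genes is thus not far from the share of all genes. Of 8 genes of H3.3 and its chaperones, H3f3a itself was lower in G34R at day 7 (60.9 ± 1.78 CPM, against 72.6 ± 3.05 CPM in WT, n = 4 each, edgeR adjusted p = 0.0428). Of the fits that left out 1 animal each, the Tet1 call held in 5 of 14 for G34R and 4 of 14 for G34V, and the Kdm2b call in 6 of 14 for G34R. The Kdm2b call in G34V ended without G34V replicate 1 (adjusted p = 0.11), and the H3f3a call held in 0 of 8. Compared within sets of libraries with a like mitochondrial share, the Tet1 calls ended (-0.19 with adjusted p = 0.271 in G34R, -0.32 with 0.0865 in G34V), as did the Kdm2b calls (0.0668 in G34R and 0.0814 in G34V).

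Among 20 protocadherins outside the clusters and their giant cadherin relatives, edgeR called 1 in the mutant comparisons with WT. DESeq2 called the same gene, and limma-voom also called Celsr3 and Pcdh10 higher in G34V. Pcdh11x, an X-linked protocadherin gene expressed in neurons, rose to 53.5 ± 3.17 CPM in G34R at 10 weeks, against 41.6 ± 1.46 CPM in WT (0.36, SE 0.0573, edgeR adjusted p = 0.000618). It was also higher in G34R than in G34V (0.37, adjusted p = 0.0217) and in G34W (0.38, adjusted p = 0.0196), and its G34R effect was larger at 10 weeks than at day 7 (0.35, SE 0.0845, adjusted p = 0.0414). Of 15 classical cadherin and catenin genes, 0 were called by edgeR in a mutant comparison with WT. At an unadjusted p under 0.05, in both directions together, there were 4 in G34W, 2 in G34R and 1 in G34V at 10 weeks and 2 in G34R at day 7. Over all genes tested, 8.67% were higher and 9.43% lower in G34R at 10 weeks at that threshold. The share higher alone was 8.17% in G34W, 7.07% in G34V and 3.81% in G34R at day 7. Without the shares lower for these comparisons, their counts of both directions cannot be set against all genes. DESeq2 called 1, Ctnnd1, in G34W, and limma-voom 0. Of 19 genes for partners of clustered protocadherins, Prkcb, a protein kinase C gene, was the one called by edgeR against WT, lower in G34R at 10 weeks (451.8 ± 26.9 CPM, against 564.0 ± 34.5 CPM in WT, -0.32, SE 0.0701, adjusted p = 0.00895). The genes flanking the clusters on chromosome 18 gave 1 edgeR call among 13 tested at 10 weeks, with Hars, a histidyl-tRNA synthetase gene, higher in G34R (0.20, SE 0.0504, edgeR adjusted p = 0.0226). Over all genes tested, edgeR called 5.61% in G34R at 10 weeks, so 1 call in a list of 13 to 20 genes is not far from that share. Leaving out 1 animal at a time, Pcdh11x stayed called against WT in 14 of 14 fits, in 10 of 14 against each of the other substitutions, and in 3 of 17 for the difference between ages. Since G34R libraries were all in the low mitochondrial-share set and the other substitutions in the high one, these calls were also fitted with the set as a block, where they ended (adjusted p = 0.329 against G34V and 0.201 against G34W). The difference from G34W was not called by limma-voom either (0.0881). In edgeR it also ended with the sex label as a covariate (adjusted p = 0.0746) and with G34R and G34W fitted alone (0.0668). The Prkcb call ended without G34R replicate 1 (adjusted p = 0.0766), and the Hars call without any one of the 3 G34R animals (0.0766 to 0.0852) and within the same mitochondrial-share set (0.15, adjusted p = 0.103).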

How the data were processed

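The authors deposited 1 table of whole-number counts per Ensembl gene for all 23 libraries. The submitters' processing notes name Trimmomatic 0.32, STAR 2.3.0e, bedtools 2.27.1, featureCounts 1.4.4 and the mm10 build. Its annotation release, strand setting and handling of multi-mapped reads are not stated. The 2 libraries of WT replicate 3 at 10 weeks were summed, except in comparisons by mitochondrial-share set, which took each library as a sample. Replicates are separate numbered animals per the labels.

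After removal of 175 sex-specific genes, edgeR 4.0.16 (R 4.3.3; filterByExpr, TMM, robust quasi-likelihood) was fitted to the 14 animals at 10 weeks, the 8 at day 7 with sex as covariate, and all 22 for age and for the difference between ages. The SE is the log2 fold change divided by the square root of F. DESeq2 1.42.0 and limma 3.58.1 (voom) were alternatives, as were other scaling and filters, mitochondrial and rRNA genes left out, each library of WT replicate 3 alone, a replicate block, sex as covariate, males alone, each animal left out and, chosen after seeing the data, mitochondrial-share sets. Exon lengths, coding identities and coordinates came from GENCODE M21 (GRCm38), matched by Ensembl identifier. Groups were also compared alone, without the other groups in the fit. The fitting was tested on simulated counts.

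Members, gene lists and tests were chosen with earlier results of these data known. Named were all members called between genotypes, the highest and lowest beta genes, the largest age changes and called genes of each list; the rule also covered C-type isoforms, which could not be told apart. Pcdhb14 and members named by unadjusted p, by range or for a closest copy were chosen after their values were seen. No sequence is printed.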

Additional observations from a re-analysis of the deposited data

Results flagged for a closer look

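Over 81 sets of values (each member, the beta sum and the cluster shares in the groups of 4 or 6 animals), 5 held an animal far from the rest by Dixon's ratio at the 95% level, and chance marks about 1 in 20. At day 7, WT replicate 1 was low for both Pcdhb12, with 5.01 CPM against 7.74 CPM in the next animal, and Pcdhb13, with 2.75 CPM against 4.72 CPM. At 10 weeks, WT replicate 1 had 16.5 CPM of Pcdhb9, with the next animal at 14.8 CPM, and WT replicate 2 had 495 CPM of the gamma row, with the next at 457 CPM. In G34R at day 7, replicate 2 had a beta share of 20.93%, with the next animal at 22.75%.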

How the results depend on the processing

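No called value changed direction under any alternative, and the age counts stayed at 2 higher and 13 lower in every fit except limma-voom, with 14 lower. The calls against WT were few. For G34R at 10 weeks, 1 member, Pcdhb14, was called higher in place of 0 under RLE scaling, a 1 CPM filter, DESeq2, limma-voom, mitochondrial and rRNA genes left out, and sex as a covariate (adjusted p from 0.02 to 0.0489). For G34V, 1 member in place of 2 was called under RLE scaling, no filter, the second library of WT replicate 3 alone and sex as a covariate. For G34V, 0 were called with libraries of the same mitochondrial-share set alone or that set as a block, both chosen after seeing the data. The fit with the set as a block took libraries as samples, so both libraries of WT replicate 3 entered it separately. Taking animals with neighbouring numbers as a replicate block, 0 members were called for G34V (adjusted p = 0.213 for Pcdhb17 and 0.25 for Pcdhb21) and 0 for G34W (0.0634 for Pcdhb9); the labels do not say that numbers pair animals, and the age comparison could not be fitted with this block. The block also ended the calls of Tet1 (0.114), Kdm2b (0.253) and Hars (0.306, log2 fold change 0.13) in G34R, of Kdm2b in G34V (0.203), and of Pcdh11x in G34R over G34V (0.811), over G34W (0.487) and between ages (0.18). With the mitochondrial-share set as a block, those of Tet1 (0.255), Kdm2b (0.0781) and Hars (0.177) in G34R ended. For G34W, 0 were called by limma-voom. DESeq2 called 1 member lower in G34R than in G34W. For G34R at day 7, 1 member, Pcdhb17, was called higher with no filter (adjusted p = 0.0432) and by DESeq2 (0.0277). The causes were not tested. Leaving out 1 animal at a time gave 0 to 1 members higher for G34R, 0 to 2 for G34V and 0 to 1 for G34W at 10 weeks, and 2 higher and 13 lower with age. The log2 ratio of beta sums then ranged from 0.0668 to 0.166 for G34R, 0.139 to 0.206 for G34V, 0.183 to 0.299 for G34W, 0.16 to 0.22 for G34R at day 7 and -0.282 to -0.223 for age. Over all alternatives, 1556 of 1702 fold changes of named genes kept their side of the threshold. This total takes in values far from the threshold, such as the age calls and the alpha and gamma rows between genotypes. It therefore does not measure how firm the calls between genotypes are. Total calls also depended on the tool, with 343 genes for G34W by edgeR, 916 by DESeq2 and 33 by limma-voom, and 63, 211 and 150 for G34R at day 7. With 1 animal left out, the median over beta genes ranged from 0.0552 to 0.138 for G34V. Depth limits Pcdhb1, with 2 to 40 counts per animal, and bears on Pcdhb8 and Pcdhb6, whose lowest counts were 51 and 71.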
